A study of Homo sapiens with 10 samples.

Results

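The 6 CRISPR/Cas9 deletion clones among the 10 libraries were set against each other within their own deletion: the first clone of each deletion against the second and the third. The clones are EA.hy926 lines, a human hybrid of umbilical vein endothelial cells and the A549 lung carcinoma line. In 3 clones the promoter of *VEGFA-LNC*, a noncoding RNA read antisense from within *VEGFA*, had been removed, and in 3 others that of *VEGFC-LNC*, a noncoding RNA upstream of *VEGFC*. The clones are homozygous for their deletion. Each set has 2 control libraries, from cells that received the guide RNAs without Cas9 and went through the same selection of single cells. No other treatment, time or genotype separates the groups. Each deletion library is 1 clone, so a difference between clones cannot be told apart from a difference between the single cells that founded them, and both numbered deletions were made in the same parental line. The 2 first clones were selected on measured values: earlier results of the same FPKM table had shown interferon and histone genes at another level in them than in the other clones. The comparison of the first clones with the other 4 is therefore a description, and its folds and medians are given with no p-value of a single gene. Counts of genes under a threshold are descriptive too and test nothing.

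A few groups of genes run through what follows. Cells that divide build histones and the enzymes of DNA replication in S phase and the spindle and checkpoint proteins of mitosis shortly after, and cells that leave the cycle switch all of these off. Type I interferons act through the receptors IFNAR1 and IFNAR2 and the kinases JAK1 and TYK2 to switch on genes of antiviral defence and of antigen display by MHC class I. Endothelial cells are known by adhesion and receptor proteins such as VE-cadherin (*CDH5*), CD31 (*PECAM1*) and von Willebrand factor (*VWF*).

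Promoters of 5 genes that set the first clones apart are shown first, as RefSeq gives them on build GRCh38.p14, from 250 bases before the start of transcription to 50 after it. *CDC20* switches on the complex that ends metaphase, *PLK1* is a kinase of mitotic entry, *RRM2* is the ribonucleotide reductase subunit that makes DNA precursors, and *IFI44L* and *IFI27* are interferon-stimulated genes. In the 3 cell cycle promoters, the capitals mark TTTGAA (the cell cycle homology element) and CCAAT, read on both strands. In the 2 interferon promoters they mark GAAANNGAA, the core of the interferon response element, on both strands. The promoters lie on the plus strand at chr1:43358731-43359030, chr16:23678639-23678938, chr2:10122489-10122788, chr1:78620198-78620497 and chr14:94110486-94110785, in that order.
CDC20: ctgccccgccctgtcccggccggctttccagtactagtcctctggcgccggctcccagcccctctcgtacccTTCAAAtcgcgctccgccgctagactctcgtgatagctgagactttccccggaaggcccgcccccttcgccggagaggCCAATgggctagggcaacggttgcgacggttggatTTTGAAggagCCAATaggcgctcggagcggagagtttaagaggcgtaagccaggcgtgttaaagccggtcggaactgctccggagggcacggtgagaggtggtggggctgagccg
PLK1: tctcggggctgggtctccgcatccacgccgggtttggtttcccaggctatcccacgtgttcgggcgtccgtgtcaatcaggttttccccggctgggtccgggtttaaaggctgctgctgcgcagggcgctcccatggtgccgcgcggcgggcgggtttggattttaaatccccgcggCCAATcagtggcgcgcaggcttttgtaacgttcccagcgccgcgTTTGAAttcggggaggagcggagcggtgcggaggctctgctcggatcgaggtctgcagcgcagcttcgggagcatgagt
RRM2: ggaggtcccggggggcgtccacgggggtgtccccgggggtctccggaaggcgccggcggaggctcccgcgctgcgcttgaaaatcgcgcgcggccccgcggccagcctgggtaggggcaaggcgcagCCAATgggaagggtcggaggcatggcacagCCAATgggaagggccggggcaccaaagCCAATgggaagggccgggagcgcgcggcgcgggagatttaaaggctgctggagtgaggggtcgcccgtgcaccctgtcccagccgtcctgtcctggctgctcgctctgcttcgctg
IFI44L: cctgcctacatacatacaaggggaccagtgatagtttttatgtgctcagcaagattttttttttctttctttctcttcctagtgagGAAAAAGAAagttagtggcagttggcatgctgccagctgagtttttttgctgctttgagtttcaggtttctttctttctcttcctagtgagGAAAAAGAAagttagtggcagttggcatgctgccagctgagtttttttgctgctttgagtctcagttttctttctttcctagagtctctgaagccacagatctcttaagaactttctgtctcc
IFI27: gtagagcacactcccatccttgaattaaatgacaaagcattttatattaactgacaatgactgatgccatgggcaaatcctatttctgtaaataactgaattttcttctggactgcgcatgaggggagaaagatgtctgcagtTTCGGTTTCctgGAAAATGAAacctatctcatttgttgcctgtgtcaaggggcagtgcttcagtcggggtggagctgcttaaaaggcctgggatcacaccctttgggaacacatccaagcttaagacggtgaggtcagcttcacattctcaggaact

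*CDC20* holds 2 matches to TTTGAA, in its 2 orientations, and 2 to CCAAT, while *PLK1* holds 1 of each. *RRM2* holds 3 CCAAT matches in 1 orientation and no TTTGAA. Over the lists, TTTGAA was found in 31 of the 44 promoters of the mitosis genes (70.5%), in 1 of 48 for DNA replication (2.1%), and in 15.2% of all 35116 promoters in the table. CCAAT was found in 75.0% of the mitosis promoters, 56.2% of those for DNA replication and 34.6% of all. GAAANNGAA stood in 35 of 56 promoters of interferon-stimulated genes (62.5%) against 8.1% of all promoters and 6.8% of those of mitosis genes. Entries were matched for 37 of 44 mitosis genes, 37 of 45 replication genes and 42 of 53 interferon-stimulated genes, some with more than 1 promoter. A match is a description of the letters and says nothing on which factor is bound.

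Values are FPKM, fragments normalised to transcript length and to the mapped reads of the library, as the authors deposited them. Differences are in log2(FPKM + 0.1), first clone minus the mean of the second and the third, so that a positive value means more in the first clone. Between 6743965 and 24197598 reads lay behind the libraries, the third *VEGFC-LNC* clone being the shallowest, and 13333 genes were retained. Endothelial markers were present in all 10 libraries: 22 of the 24 could be tested, *CLDN5* was at 0 throughout, and *CDH5* ranged from 56.6 to 312 FPKM. Keratins 7, 8 and 18 were also expressed in every library, with *KRT18* between 101 and 436 FPKM, while *EPCAM*, *CDH1* and *NKX2-1* stayed at or below 0.505 FPKM. Of 16 leukocyte markers only *CD68* exceeded 5 FPKM in any library, and *PTPRC*, which encodes CD45, did not exceed 0.123 FPKM. *VEGFA-LNC* and *VEGFC-LNC* were not matched to a row by name, and their levels are not given here.

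Each first clone was at least 2-fold apart from its sister clones in more genes than the sisters were from each other. The margin was wider in the *VEGFA-LNC* set. Among the *VEGFA-LNC* clones, 2642 genes were at least 2-fold apart between the first and the second clone and 2088 between the first and the third, against 477 between the second and the third. The corresponding counts for the *VEGFC-LNC* clones were 1245, 1255 and 707. The 2 controls of a set were far closer to each other, with 62 and 90 genes. Their counts still spread beyond sampling, with a chi-square of 4.43 and 1.74 per gene against 32.0 and 31.9 between the second and the third clones.

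**Figure D1:**
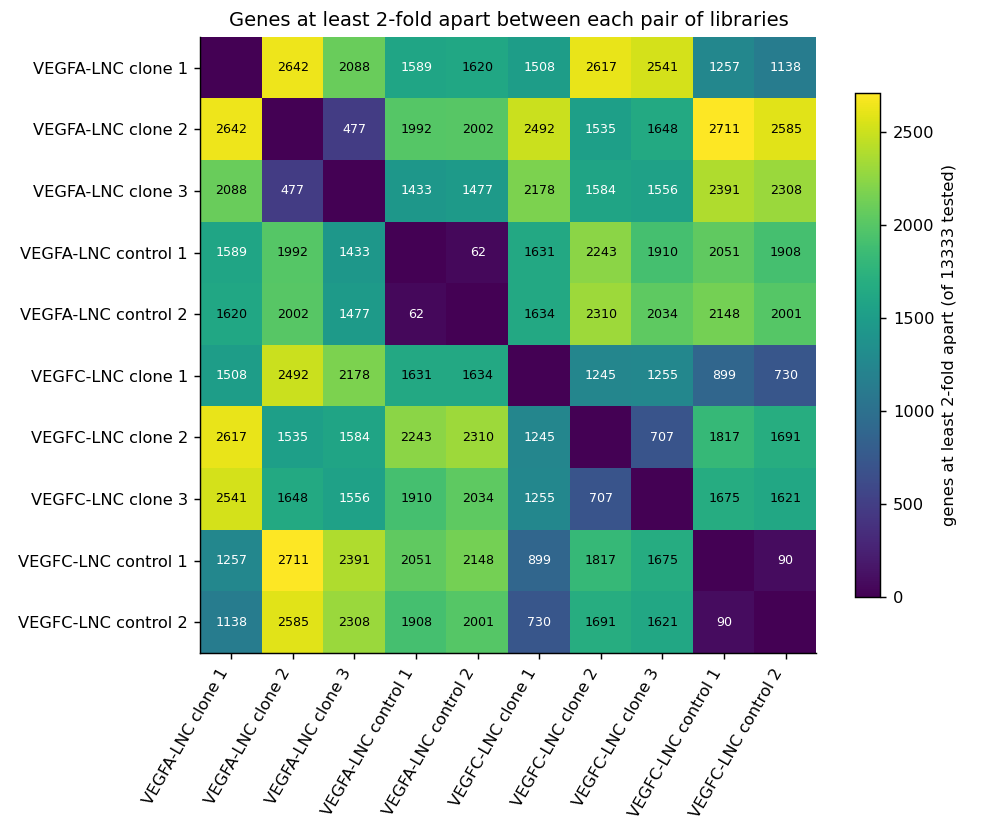
Each cell gives the number of genes, of 13333, that were at least 2-fold apart on the log2(FPKM + 0.1) scale between the libraries of its row and column. The first *VEGFA-LNC* clone differs by 2642 genes from the second clone of its own set and by 1138 from a *VEGFC-LNC* control.

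Across sets, the order of the distances was not that of the deletions. The first *VEGFA-LNC* clone and the first *VEGFC-LNC* clone were 1508 genes apart, fewer than the first *VEGFA-LNC* clone was from either of its own sisters and more than the first *VEGFC-LNC* clone was from its own. The second clones of the sets were 1535 genes apart, whereas the first *VEGFA-LNC* clone and the second *VEGFC-LNC* clone were 2617 apart. The nearest libraries to both first clones were the *VEGFC-LNC* controls, at 1138 and 1257 genes for the first *VEGFA-LNC* clone, whose own controls were 1589 and 1620 genes away, and 730 and 899 for the first *VEGFC-LNC* clone.

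In sets of 3 clones, any clone lies above both others or below both in many genes without standing apart. In the *VEGFA-LNC* set the first clone was higher than both others in 44.9% of genes and lower than both in 39.9%, and in the *VEGFC-LNC* set in 41.0% and 30.7%. It was higher in both sets in 3468 genes (26.0%) and lower in both in 2548 (19.1%), while 2194 genes (16.5%) went in opposite directions. With median-of-ratios scaling these became 2942 higher and 3183 lower, so that the larger count was then the lower one. Between the sets, which share no library, the differences had a Pearson correlation of 0.55 and a Spearman correlation of 0.48 over the 13333 genes. Both values are a description, because genes of a library are not independent. The first clones of both sets were also chosen on values of the same genes, so part of this agreement was fixed by the choice. The median absolute difference was 0.40 in the *VEGFA-LNC* set and 0.28 in the *VEGFC-LNC* set, where the second and the third clones differed by 0.21 and 0.26.

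By the study's thresholds, an FDR under 0.05 and a fold change of 1.5, limma separated 847 genes in the fit of both sets (6.35%), of which 474 were higher and 373 lower in the first clones. With median-of-ratios scaling the split was 474 higher and 503 lower. The count and the split also depended on single clones, at 43 higher and 50 lower without the second *VEGFA-LNC* clone, 0 in all by limma without the third (2701 at an unadjusted p under 0.05), 35 higher and 76 lower without the second *VEGFC-LNC* clone, and 495 higher and 225 lower without the third. Within the *VEGFA-LNC* set alone it separated 1356 genes (10.2%), and within the *VEGFC-LNC* set 2 (0.015%), with 1814 at an unadjusted p under 0.05. No gene passed for a difference between the sets by limma, with 1391 at an unadjusted p under 0.05. The clones were grouped on earlier values of the same table, and first clones of different deletions stand as a single group in the fit of both sets. They are not replicates of a condition, and nothing is read from these counts. Without the first *VEGFA-LNC* clone 1 gene was left and without the third *VEGFA-LNC* clone 0, with 1812 and 2701 at an unadjusted p under 0.05. Without the second *VEGFA-LNC* clone 93 were left, without the second *VEGFC-LNC* clone 111, and without the first *VEGFC-LNC* clone, when the contrast rests on the *VEGFA-LNC* set alone, 1362.

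**Figure D2:**
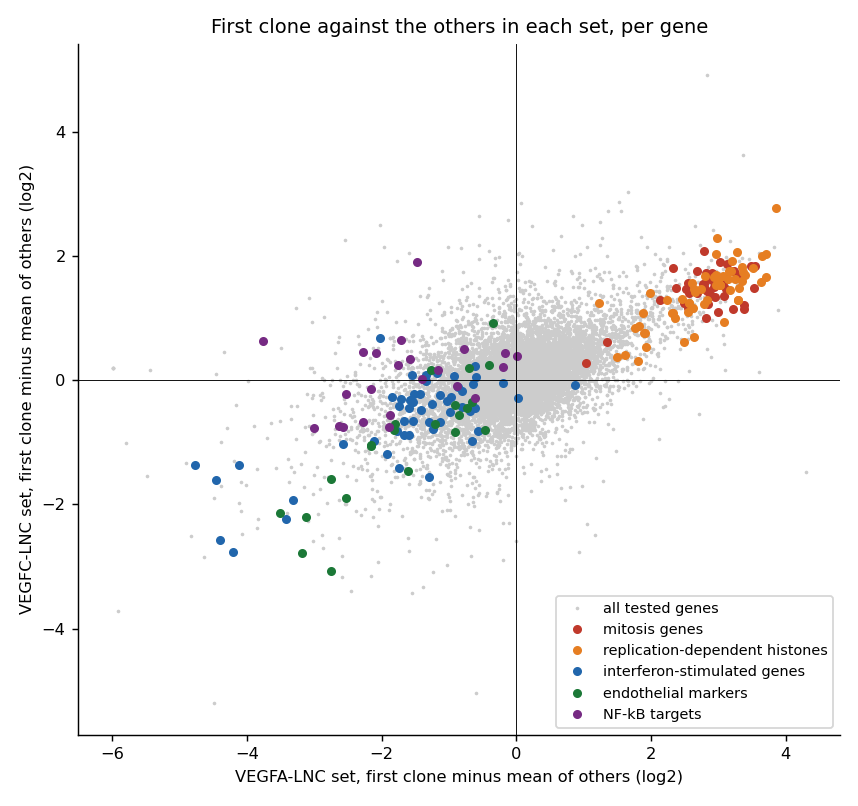
Each point is 1 of 13333 genes, with the log2 difference of the first clone from the mean of the second and the third in the *VEGFA-LNC* set on the x axis and in the *VEGFC-LNC* set on the y axis. Mitosis and histone genes lie at the upper right, interferon-stimulated and endothelial genes at the lower left, and NF-kB targets are low on the x axis and spread around 0 on the y axis.

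Genes of the cell cycle were higher in both first clones. All 44 tested mitosis genes, of 45 listed, were higher in the first clone than in both others in each set, against 44.9% and 41.0% of all genes. Their median difference was 2.86 in the *VEGFA-LNC* set and 1.48 in the *VEGFC-LNC* set, beside 0.04 and 0.06 over all genes. Without the second *VEGFC-LNC* clone the median of that set was 0.89. *CDC20* stood at 67.9 FPKM in the first *VEGFA-LNC* clone and at 4.41 and 7.44 in the second and the third, and at 45.0, 7.42 and 21.0 FPKM in the 3 *VEGFC-LNC* clones. The first clone had the highest value of its set in both cases, 11.5 times the mean of the others in the *VEGFA-LNC* set and 3.17 times in the *VEGFC-LNC* set. On the log2 scale the differences were 3.54 ± 0.59 and 1.84 ± 0.59 (limma SE, pooled over both sets, n = 1 against 2 in each).

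*PLK1* was at 47.9, 3.50 and 4.67 FPKM in the *VEGFA-LNC* clones and at 22.3, 4.56 and 13.7 in the *VEGFC-LNC* clones. *TOP2A*, the topoisomerase that untangles chromosomes, was at 58.7, 4.60 and 8.52 FPKM in the *VEGFA-LNC* clones and at 42.8, 7.82 and 20.1 in the *VEGFC-LNC* clones. *MKI67*, the proliferation antigen Ki-67, was at 21.1, 1.33 and 2.78 and at 11.0, 2.59 and 8.55 FPKM. In all 3 genes the second clone was the lowest of its set, and the third *VEGFC-LNC* clone came closer to the first than its counterpart did in the *VEGFA-LNC* set. The smallest differences of the list were those of *BUB3*, a checkpoint protein, with 1.04 and 0.27.

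The controls did not stand with 1 group of clones. On the scale of the list median, the second and the third *VEGFA-LNC* clone lay at -0.36 and 0.36, their controls at 1.73 and 1.71 and the first clone at 2.86. The first *VEGFA-LNC* clone was thus above its controls and the other 2 were below them. In the *VEGFC-LNC* set the second and the third clone lay at -0.57 and 0.57, the first at 1.48 and the controls at 2.22 and 2.21, so that all 3 clones were below their controls and the first clone was the nearest to them. Summed over the list, mitosis genes reached 1324 FPKM in the first *VEGFA-LNC* clone and between 1414 and 1423 FPKM in the *VEGFC-LNC* controls, against 614 to 625 in the *VEGFA-LNC* controls. In bulk RNA, a larger share of dividing cells and more RNA per dividing cell cannot be told apart.

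DNA replication genes followed the same order. Of 45 tested, 45 were higher in the first clone than in both others in the *VEGFA-LNC* set and 43 in the *VEGFC-LNC* set, with medians of 2.14 and 1.17. *RRM2* was at 67.9, 3.35 and 6.58 FPKM in the *VEGFA-LNC* clones and at 42.7, 7.40 and 12.3 in the *VEGFC-LNC* clones, ratios of 13.7 and 4.35. Its differences, 3.82 ± 0.45 and 2.15 ± 0.45, were the largest of the list in both sets together. *TK1*, thymidine kinase, was at 70.2, 7.52 and 9.14 and at 46.8, 8.73 and 20.8 FPKM. *GINS2*, of the replicative helicase, was at 20.3, 1.25 and 3.19 and at 10.8, 2.63 and 4.93 FPKM. The 2 genes of the list that were lower in the first *VEGFC-LNC* clone than in both others were *GINS3*, at 9.83 against 9.99 and 11.0 FPKM, and *SLBP*, which binds the stem-loop of histone messages, at 14.3 against 17.7 and 18.0 FPKM. *PCNA*, the sliding clamp, was higher in both first clones by only 0.49 and 0.57, at 244 and 179 FPKM.

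Replication-dependent histones had the same order. Their messages end in a stem-loop in place of a poly(A) tail and remain in libraries depleted of rRNA. Of 59 tested genes of 63 listed, 59 were higher in the first *VEGFA-LNC* clone than in both others and 56 in the first *VEGFC-LNC* clone, with medians of 2.94 and 1.46. *HIST1H3B* was at 272, 14.8 and 29.1 FPKM in the *VEGFA-LNC* clones and at 207, 37.7 and 67.8 in the *VEGFC-LNC* clones. *HIST1H2AB* had the largest difference of the list, at 51.4, 2.40 and 4.96 and at 45.1, 4.10 and 10.3 FPKM, ratios of 14.0 and 6.26. *HIST1H2BM*, at 37.9, 2.81 and 3.12 FPKM in the *VEGFA-LNC* clones, was among the 8 highest of that set. The linker histone *HIST1H1D* was at 177, 13.9 and 23.9 and at 131, 23.8 and 41.0 FPKM.

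Histone transcripts took 0.648% of the reads in the first *VEGFA-LNC* clone and 0.394% in the first *VEGFC-LNC* clone, against 0.095% to 0.210% in the other 4 clones. In the controls the share was 0.180% and 0.163% in the *VEGFA-LNC* set and 0.641% and 0.658% in the *VEGFC-LNC* set. The first *VEGFA-LNC* clone thus carried a histone share close to that of the *VEGFC-LNC* controls and above that of its own controls. Histone genes are near-identical in part, and reads may be divided among them, so single genes are less certain than the list.

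Among genes with at least 1 FPKM in 2 or more of the 6 clones, 530 had a difference of at least 1 in the same direction in both sets with the first clone outside both others, 333 of them higher. Among the 12 highest were 5 histone genes, *RRM2*, *CDC20*, *PIMREG* (at 9.98, 0.741 and 1.39 and at 7.23, 0.810 and 2.51 FPKM) and *PBK*, a mitotic kinase (at 13.7, 0.952 and 1.42 and at 10.4, 1.67 and 4.08 FPKM). The other 3 were *SERPINB2*, *AMTN* and *ENAM*. *SERPINB2*, plasminogen activator inhibitor type 2, was at 203, 13.8 and 28.0 FPKM in the *VEGFA-LNC* clones and at 19.8, 5.13 and 0.391 in the *VEGFC-LNC* clones. Its controls, at 165 and 164 and at 45.5 and 44.9 FPKM, were near the first clone in the *VEGFA-LNC* set and above all 3 clones in the *VEGFC-LNC* set. *AMTN*, at chr4:71384289-71398460 on hg19, was at 6.62, 0.872 and 0.809 and at 41.7, 7.67 and 0.149 FPKM. *ENAM*, at chr4:71494461-71512536, was at 1.73, 0.124 and 0.162 and at 1.91, 0.287 and 0.262 FPKM. Both genes encode proteins of tooth enamel or its junction to the gum and are neighbours on chromosome 4. *ENAM* was also above its controls, at 0.353 to 0.524 FPKM, in both first clones.

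The transcripts lowest in both first clones were *TXNIP* and *MMP10*. *TXNIP*, thioredoxin-interacting protein, restrains glucose uptake. It was at 6.07 FPKM in the first *VEGFA-LNC* clone against 154 and 124, and at 0.920 in the first *VEGFC-LNC* clone against 62.3 and 22.6, which is 22.9 and 46.1 times lower than the mean of the others. The differences were -4.49 ± 0.53 and -5.21 ± 0.53. The controls, at 15.6 and 17.0 and at 2.81 and 3.34 FPKM, lay between the first and the other clones in both sets.

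*MMP10*, the matrix metalloproteinase stromelysin 2, was at 0.423, 24.1 and 40.7 FPKM in the *VEGFA-LNC* clones and at 1.38, 26.7 and 14.0 in the *VEGFC-LNC* clones. These are 76.7 and 14.7 times lower in the first clone. The *VEGFC-LNC* controls, at 0.904 and 0.733 FPKM, were below even their first clone. *RASGRP3*, an activator of Ras in endothelial cells, was at 0.107, 10.3 and 2.46 and at 0.884, 6.82 and 7.20 FPKM. *CALCRL*, the receptor chain for adrenomedullin, was at 0.405, 28.0 and 7.32 and at 1.51, 10.7 and 7.68 FPKM. In both *RASGRP3* and *CALCRL* the second *VEGFA-LNC* clone was well above the third, and the first lay below both.

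Others among the 12 lowest are known from endothelium. *PCDH12*, VE-cadherin-2, was at 0.759, 32.5 and 11.4 and at 4.17, 13.9 and 17.7 FPKM. *F2RL3*, the thrombin receptor PAR4, was at 0.078, 8.77 and 0.913 and at 3.58, 20.2 and 20.5 FPKM. *KANK3* was at 0.436, 25.0 and 10.2 and at 5.10, 12.6 and 13.6 FPKM, and *DEPP1* at 0.817, 29.9 and 5.71 and at 3.04, 12.9 and 20.3 FPKM. In these 4 genes the first clone had the lowest value in each set. *FER1L6* was at 0.090, 10.3 and 10.6 FPKM in the *VEGFA-LNC* clones and at 0.661, 1.12 and 1.83 in the *VEGFC-LNC* clones, so that its difference was -5.79 in 1 set and -1.01 in the other. *LTB*, lymphotoxin beta, had 3 reads in the first *VEGFA-LNC* clone against 249 and 215, a ratio of 64.2 (exact 95% interval 21.8 to 312, counting error only), and was at 1.61, 3.29 and 7.19 FPKM in the *VEGFC-LNC* clones.

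The endothelial markers as a list were lower in the first clones. All 22 tested were lower in the first *VEGFA-LNC* clone than in both others, with a median of -1.44 (-0.82 without the second clone and -0.89 with a pseudocount of 1), and 18 were lower and 4 higher in the first *VEGFC-LNC* clone, with a median of -0.81, where 39.9% and 30.7% of all genes were lower. *PECAM1* was at 13.9, 159 and 56.1 FPKM in the *VEGFA-LNC* clones and at 16.5, 46.1 and 53.2 in the *VEGFC-LNC* clones. *CDH5* was at 56.6, 312 and 206 and at 126, 250 and 275 FPKM, and *VWF* at 0.650, 8.78 and 4.74 and at 0.716, 3.41 and 3.88 FPKM. The first clone was lowest in all 3, below the controls of its set for *PECAM1* (31.2 and 32.8, and 35.3 and 32.9 FPKM), while for *CDH5* the first *VEGFC-LNC* clone was just above its controls at 119 and 118 FPKM. *LYVE1* and *KDR*, the main VEGF receptor of endothelium, had the largest differences of the list over both sets, and *KDR* did not exceed 1.39 FPKM in any library.

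The summed level of the 24 markers was 799 and 1096 FPKM in the first clones, 1356 to 1970 in the others and 1088 to 1184 in the controls. The 4 markers that were higher in the first *VEGFC-LNC* clone than in its sisters included *SOX17*, at 1.88 against 1.01 and 0.885 FPKM, and *NOS3*, endothelial nitric oxide synthase, at 49.7 against 40.8 and 43.2. Of the keratins of the A549 parent, *KRT18* was at 436, 126 and 193 and at 189, 101 and 136 FPKM, highest in the first of the 3 clones in both sets, with controls at 287 and 283 and at 333 and 335 FPKM. Of the 5 epithelial markers tested, 3 were higher in the first clone than in both others in each set. Whether the level of these markers had a part in the other differences was not tested.

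Interferon-stimulated genes were lower in the first *VEGFA-LNC* clone and, in part, in the first *VEGFC-LNC* clone. In the *VEGFA-LNC* set 51 of 53 tested genes were lower in the first clone than in both others, with a median of -1.42. In the *VEGFC-LNC* set 29 were lower, 4 higher and 20 between, with a median of -0.44, and here the second clone, at -0.37, was nearly as low as the first and only the third stood at 0.37. Without the third clone the median was -0.08 and without the second -0.79. *IFI44L* was at 0.880, 25.5 and 12.9 FPKM in the *VEGFA-LNC* clones and at 0.478, 2.08 and 7.08 in the *VEGFC-LNC* clones. *XAF1*, a promoter of apoptosis, was at 0.503, 15.0 and 10.8 and at 0.411, 1.34 and 6.31 FPKM. *IFI27* was at 5.65, 203 and 123 and at 29.4, 61.1 and 94.6 FPKM. In all 3 the first *VEGFC-LNC* clone was the lowest of its set and the third the highest.

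Summed over the list, the second and the third *VEGFA-LNC* clones reached the highest levels of the 10 libraries, 3815 and 3291 FPKM, against 1282 in the first clone and 1105 to 1197 in their controls, and by the list median the first clone lay near its controls (-1.42 against -1.28 and -1.23). The sums for the *VEGFC-LNC* clones were 1031, 1523 and 2463 FPKM and the controls had 1147 and 1155. By the list median, however, the first *VEGFC-LNC* clone lay above its controls (-0.44 against -0.67 and -0.69). *MX2*, an antiviral GTPase, was at 0.639, 19.96 and 13.0 FPKM in the *VEGFA-LNC* clones and at 0.527 and 0.256 in their controls. *OAS2*, which senses double-stranded RNA, was at 7.20, 85.4 and 61.3 FPKM beside controls at 9.00 and 9.63. An exception was *OASL*, at 22.0, 13.5 and 10.6 FPKM, the 1 gene of the list that was higher in the first *VEGFA-LNC* clone than in both others.

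Interferon transcripts themselves were close to the limit of detection. *IFNB1* had 0, 8 and 4 reads in the *VEGFA-LNC* clones, 1 and 3 in their controls and 0 in all 5 libraries of the *VEGFC-LNC* set. *IFNL1* had 0, 2 and 5 reads in the *VEGFA-LNC* clones and 0 and 3 in their controls. *IFNG* and *IFNA2* had 0 reads in every library. Of the receptor chains and kinases, 8 were tested, and *JAK1* differed most: it was at 55.0 FPKM in the first *VEGFA-LNC* clone and between 111 and 171 FPKM in the other 9 libraries, a difference of -1.59 in the *VEGFA-LNC* set and -0.09 in the *VEGFC-LNC* set. *IFNAR1* differed by -0.46 and -0.20 and *TYK2* by -0.12 and 0.29.

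The genes of MHC class I and peptide loading moved with the interferon genes in the *VEGFA-LNC* set, where 21 of 21 were lower in the first clone than in both others (median -1.08). Of the same genes, 11 were lower in the *VEGFC-LNC* set and 5 higher, with a median of -0.21, or -0.01 without the third clone and -0.45 without the second. Over all genes, 39.9% were lower in the *VEGFA-LNC* set, and 30.7% were lower and 41.0% higher in the *VEGFC-LNC* set. *HLA-B* was at 15.8, 194 and 121 FPKM and at 25.9, 45.7 and 54.1 FPKM. *B2M*, the shared light chain, was at 290, 1077 and 636 and at 278, 438 and 465 FPKM. *HLA-B*, *HLA-C*, *HLA-E*, *HLA-F*, *HLA-G* and *B2M* were lowest in the first clone in both sets, while *PSMB9*, a subunit of the immunoproteasome, and *CALR*, a chaperone of loading, were lower in the first *VEGFA-LNC* clone and higher in the first *VEGFC-LNC* clone than in both sisters. Reads of the *HLA* genes may be shared among them.

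NF-kB targets were lower in the first *VEGFA-LNC* clone, and the difference of the list between the sets was not tested. In the *VEGFA-LNC* set 21 of 23 tested genes were lower in the first clone than in both others (median -1.75, or -1.15 without the third clone), and in the *VEGFC-LNC* set 8 were higher and 7 lower (median 0.16, or -0.16 without the second clone). Of all genes, 39.9% were lower in the *VEGFA-LNC* set, and 41.0% were higher and 30.7% lower in the *VEGFC-LNC* set. *SOD2*, the mitochondrial superoxide dismutase, was at 18.3, 148 and 149 FPKM and at 11.8, 18.8 and 21.5 FPKM. *ICAM1*, which leukocytes bind, was at 6.397, 24.1 and 57.8 and at 5.78, 7.07 and 6.46 FPKM. *IL6* was lower in the first *VEGFA-LNC* clone, at 1.08, 2.06 and 4.91 FPKM, and higher in the first *VEGFC-LNC* clone, at 2.83, 0.458 and 1.00 FPKM. The list median of the *VEGFA-LNC* controls, at -0.01 and -0.20, lay with the second and the third clones, unlike for interferon-stimulated genes.

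p53 targets were lower in the first *VEGFA-LNC* clone than in both others in 21 of 24 genes and higher in 1 (median -0.53), and lower in 12 and higher in 4 of 24 in the *VEGFC-LNC* set (median -0.16, where the second clone lay at -0.21), beside 39.9% and 30.7% of all genes lower. *CDKN1A*, the p21 inhibitor of cyclin-dependent kinases, was at 93.5, 171 and 210 FPKM in the *VEGFA-LNC* clones and at 52.4, 66.5 and 104 in the *VEGFC-LNC* clones. Its controls were at 165 and 174 and at 40.5 and 38.8 FPKM, so that the first clone was below its controls in 1 set and above them in the other. Immediate-early genes were lower in 21 of 26 and higher in 3 in the *VEGFA-LNC* set (median -0.64), and lower in 14 of 26 and higher in 6 in the *VEGFC-LNC* set (median -0.24). Against that direction, *MYC* was at 54.6, 14.7 and 24.7 FPKM and *FOSL1* at 108, 45.5 and 63.7 FPKM in the *VEGFA-LNC* clones.

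Genes of cholesterol and fatty acid synthesis were higher in both first clones, in 24 of 28 tested genes in the *VEGFA-LNC* set and 21 in the *VEGFC-LNC* set, with medians of 0.43 and 0.75. The shares of all genes that were higher were 44.9% and 41.0%. *INSIG1*, which holds the sterol sensor in the endoplasmic reticulum, was at 16.8, 6.91 and 4.83 and at 37.4, 10.2 and 13.4 FPKM. *FASN*, fatty acid synthase, was at 40.3, 15.0 and 21.6 and at 47.0, 17.6 and 25.4 FPKM. In both genes the first clone had the highest value of the 3 clones of its set.

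*PHGDH* and *ASNS* were picked after their values were seen. *PHGDH*, the first enzyme of the serine pathway, was at 41.5, 5.72 and 8.62 FPKM in the *VEGFA-LNC* clones. In the *VEGFC-LNC* clones it was at 32.6, 34.5 and 8.89 FPKM, so that the first and the second clone were high and the third was low. *ASNS*, asparagine synthetase, had the same order, at 26.9, 4.49 and 8.23 and at 31.0, 48.9 and 8.24 FPKM. Over the 31 tested genes of ATF4 and amino acid stress the medians were 0.13 and 0.37. In the *VEGFA-LNC* set 15 were higher and 10 lower, beside 44.9% and 39.9% of all genes. In the *VEGFC-LNC* set 10 were higher and 1 lower, beside 41.0% and 30.7%. By the list median the second *VEGFC-LNC* clone, at 0.48, lay above the first at 0.37.

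Ribosomal protein genes were higher in the first *VEGFA-LNC* clone than in both others in 78 of 84 tested genes (median 0.35), and in the *VEGFC-LNC* set 45 were lower and 9 higher (median -0.15, or -0.23 without the second clone and -0.09 without the third). They took 3.63% of the reads in the first *VEGFA-LNC* clone against 2.62% and 2.89%, and 2.98%, 3.18% and 3.48% in the 3 *VEGFC-LNC* clones. Small nucleolar and Cajal body RNAs, which guide the chemical marks of rRNA and splicing RNAs, were lower in the first clone in 54 of 99 tested genes in the *VEGFA-LNC* set and in 45 in the *VEGFC-LNC* set, of 552 listed, and higher in 21 and 22, with medians of -0.53 and -0.26. Of all genes, 44.9% and 41.0% were higher and 39.9% and 30.7% lower. Of 9 tested nuclear long noncoding RNAs, 3 were higher in both first clones than in both others and 2 were lower in both. The other 4 were on opposite sides, *MALAT1* and *NEAT1* among them. The shares over all genes were 26.0%, 19.1% and 16.5%. *MALAT1* was at 134, 338 and 362 FPKM in the *VEGFA-LNC* clones and at 1415, 1152 and 1087 in the *VEGFC-LNC* clones, and *NEAT1* at 26.1, 46.2 and 50.7 and at 147, 77.5 and 74.1 FPKM. Both were lowest in the first clone of 1 set and highest in the first clone of the other.

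Among single genes, *NEGR1*, a neuronal adhesion protein, had the largest difference upwards in the *VEGFA-LNC* set, at 4.45, 0.096 and 0.173 FPKM, and was at 0.339, 1.10 and 1.15 FPKM in the *VEGFC-LNC* clones. Next came *FAM196B*, at 4.43, 0.154 and 0.270 and at 1.03, 0.272 and 0.621 FPKM. The *VEGFA-LNC* controls, at 2.38 and 2.82 FPKM for *NEGR1* and at 5.11 and 5.51 for *FAM196B*, were near the first clone in both genes. At the lower end, complement *C3* was at 0.198, 3.50 and 46.3 FPKM, far apart between the second and the third clone, and was at or below 0.041 FPKM in the *VEGFC-LNC* set. *MIR6859-1* and its 3 near-identical copies share their reads and count once: 0, 4 and 14 reads in the *VEGFA-LNC* clones, at least 2.53-fold lower in the first at a floor of 3 reads.

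In the *VEGFC-LNC* set, the 8 highest beside *AMTN*, *SERPINB2* and *HIST1H2AB* were *DHRS2* (3.86, 0.162 and 0.802 FPKM), *HSD17B8* (1.995, 0.715 and 0), *CD53* (1.29, 0.274 and 0), *CPA4*, a carboxypeptidase (16.8, 1.52 and 3.91), and *LOC102467226* (2.05, 1.08 and 0). Of these 5, *CD53* was not above both others in the first *VEGFA-LNC* clone, at 1.265, 2.001 and 0.707 FPKM. The other 4 were, with *DHRS2* at 3.84, 1.40 and 0.933, *HSD17B8* at 2.87, 0.937 and 0.935, *CPA4* at 59.3, 9.21 and 44.2, and *LOC102467226* at 2.82, 1.84 and 1.26 FPKM. *HSD17B8*, *CD53* and *LOC102467226* had 44, 40 and 23 reads in the first *VEGFC-LNC* clone and 13, 7 and 10 in the second. They had 0 in the third, the shallowest library, so their places among the 8 highest rest on few reads. The 8 lowest beside *TXNIP* and *MMP10* were *LINC02506* (0, 2.46 and 4.16 FPKM, at least 18.5-fold lower at a floor of 3 reads), *GIMAP7* (0.255, 1.501 and 8.59), *OR1L8* (0, 1.28 and 0.639, at least 6.66-fold lower), *ENKUR* (2 reads against 38 and 18, a ratio of 24.9 with an exact 95% interval of 6.57 to 210), *CCDC92* (1.60, 13.9 and 16.4) and *PMCH* (0.235, 4.76 and 1.56). All 6 were also below both others by value in the first *VEGFA-LNC* clone. There *GIMAP7* had 0, 44 and 1 reads and *PMCH* 0, 3 and 1 in the *VEGFA-LNC* clones. These reads are too few to set the first clone apart from the third in either gene, or from the second in *PMCH*. *CCDC92*, with the most reads of the 6, was at 2.84, 13.5 and 12.5 FPKM in the *VEGFA-LNC* clones, differences of -2.15 ± 0.24 and -3.15 ± 0.24.

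*VEGFC* and *VEGFA* are the genes beside the deleted promoters. *VEGFC* was at 11.6, 11.4 and 10.8 FPKM in the *VEGFA-LNC* clones and at 5.38, 4.84 and 4.63 in the *VEGFC-LNC* clones, the first being the highest by 0.06 and 0.18 on the log2 scale. All 3 *VEGFC-LNC* clones were below their controls, at 9.47 and 10.5 FPKM, by more than they differed among themselves. *VEGFA* was at 4.68, 4.71 and 7.35 and at 8.85, 7.83 and 5.25 FPKM, and in both sets the first and the second clone were closer to each other than to the third. All 3 *VEGFA-LNC* clones were below their controls, at 10.2 and 9.62 FPKM, and all 3 *VEGFC-LNC* clones above theirs, at 3.23 and 3.84 FPKM. By RT-qPCR the paper reports more *VEGFA* after the *VEGFA-LNC* deletion and after knockdown of *VEGFA-LNC* with antisense oligonucleotides. By sequencing it did not call the gene. The *VEGFA* values given here are those of a single RefSeq row, the one with the highest mean FPKM. Of the other ligands and receptors, *PGF* was at 30.9, 205 and 128 and at 70.1, 139 and 145 FPKM, and *NRP2*, a co-receptor of VEGF-C, at 11.3, 41.8 and 27.3 and at 21.2, 44.4 and 51.5 FPKM. Both were lowest in the first clone of each set.

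Along the genome, 263 runs of about 50 neighbouring tested genes were compared by the median difference less that of all genes. A total of 14 stretches reached 0.3 in size in the *VEGFA-LNC* set and 7 in the *VEGFC-LNC* set, and 2 of them were shared. The stretch at chr6:13574761-28321972 (hg19), at 1.07 and 0.54, holds the large histone cluster. The other, at chr5:139937853-141392620, lay at -1.92 and -0.74 and holds the clustered protocadherins, a family of adhesion proteins.

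The 29 tested protocadherin genes, listed after their values were seen, were all lower in the first *VEGFA-LNC* clone than in both others (median -2.27) and 26 were lower in the first *VEGFC-LNC* clone (median -0.80). Their summed level was 26.9, 138 and 136 FPKM in the *VEGFA-LNC* clones and 60.5, 88.6 and 131 in the *VEGFC-LNC* clones. The controls summed to 64.8 and 59.4 and to 54.0 and 51.7 FPKM, close to the first *VEGFC-LNC* clone and above the first *VEGFA-LNC* clone. *PCDHGC3* was at 2.20, 11.4 and 11.5 and at 4.91, 7.35 and 10.4 FPKM. Rows of the gamma cluster are nearly equal to one another and have their last exons in common, so the 29 genes are not 29 measurements.

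**Figure D3:**
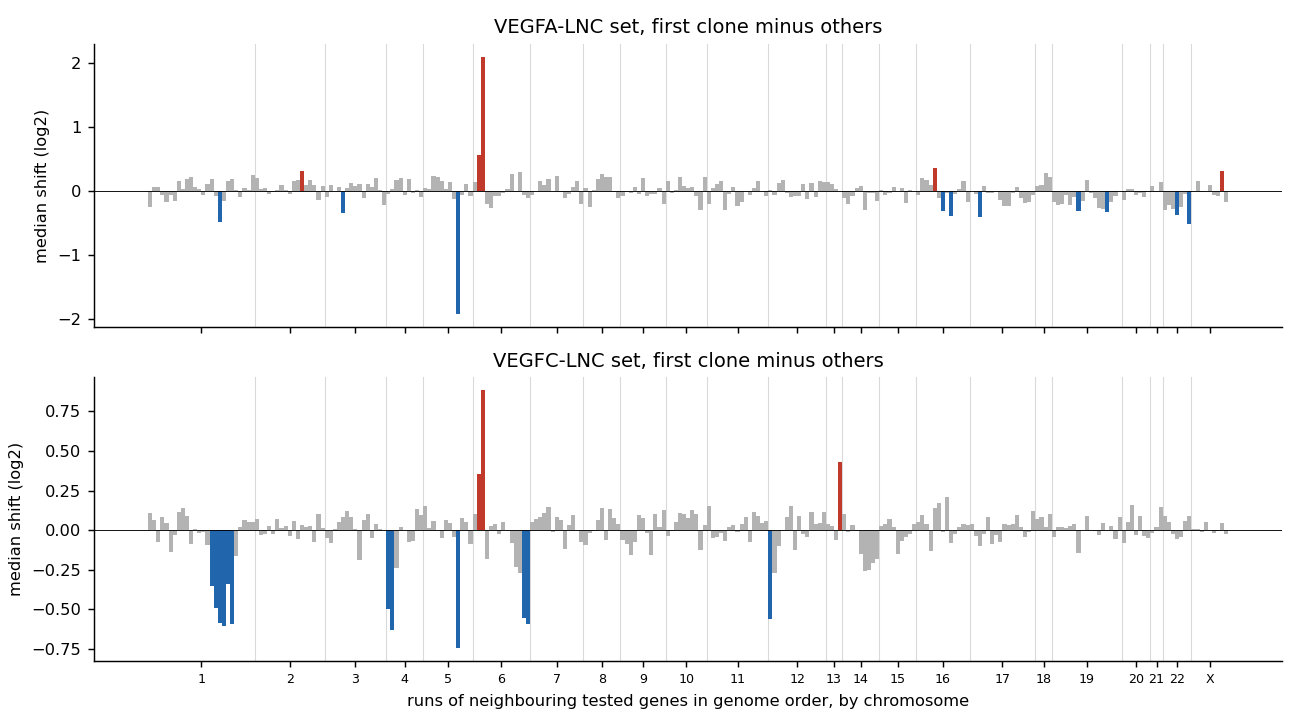
Median shift of runs of about 50 neighbouring tested genes, first clone minus the others less the median of all genes, in genome order with chromosomes on the x axis, for each set. Red and blue bars reach 0.3 in size, and blocks of neighbouring blue bars on chromosomes 1, 4 and 6 stand only in the panel of the *VEGFC-LNC* set.

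The other 5 stretches of the *VEGFC-LNC* set held between 50 and 300 tested genes. The longest, chr1:146373857-181031074, held 300 tested genes at a shift of -0.51, of which 212 were lower in the first clone than in both others and 42 higher. Against their own controls, the 3 clones lay there at -0.52, -0.02 and 0.03, so that the first clone alone lay below its controls by more than 0.1. The *VEGFA-LNC* clones, against theirs, lay at -0.05, -0.06 and -0.04 over the same genes.

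On chromosome 4, from 53179 to 27027003, 81 of 100 genes were lower in the first *VEGFC-LNC* clone than in both others, at a shift of -0.54, with the clones at -0.57, 0.10 and 0.00 against their controls. On chromosome 6, from 139456249 to 170893742, 79 of 98 were lower, at -0.56, with the clones at -0.56, 0.08 and -0.05. On chromosome 12, from 73725 to 6956559, 36 of 50 were lower, at -0.56. Here all 3 clones lay below their controls, at -0.93, -0.44 and -0.31. On chromosome 13, from 77618792 to 115092803, 50 of 66 were higher, at 0.43, with the clones at 0.42, 0.04 and -0.02. In the *VEGFA-LNC* set the shift of these 5 stretches was between -0.10 and 0.02.

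The 12 remaining stretches of the *VEGFA-LNC* set were single runs of about 50 genes, between -0.51 and 0.36. The lowest, chr22:44888450-51238065, was lower in the first clone than in both others in 35 of 48 genes. Another, chr1:154179177-156028301, lies within the stretch named above on that chromosome, and stood at -0.48 in the *VEGFA-LNC* set and -0.59 in the *VEGFC-LNC* set. With runs of 30 genes in place of 50, 37 stretches were named in the *VEGFA-LNC* set and 11 in the *VEGFC-LNC* set.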

How the data were processed

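Total RNA depleted of rRNA from EA.hy926 clones was sequenced from 1 end as stranded libraries. For these deletions the authors describe trimming with Trim Galore 0.4.4, alignment to hg19 with STAR 2.5.4b and counting with featureCounts. Per the file headers the deposited values are FPKM per RefSeq transcript (65572 rows). How this FPKM table was made from the alignments is not given in the sources used here.

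The row with the highest mean FPKM was kept for each of 27945 symbols, and 42 rows without a symbol were left out. Genes with FPKM times length in kilobases of at least 1 in 2 or more of the 10 libraries were tested (13333). Every value checked was a whole number of reads within 0.1 (100.0%), at 6743965 to 24197598 reads a library. Intervals and floors of 3 reads cover counting error only.

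First clones were compared with the second and the third by limma 3.58.1 in R 4.3.3 on log2(FPKM + 0.1), with the set as covariate for both sets together and with 4 groups for each set. The fits were tested on simulated data, and controls entered no main fit. Alternatives were a pseudocount of 1, no filter, median-of-ratios scaling, voom on the recovered reads, all 10 libraries, a minimum mean of 1 FPKM, runs of 30 genes and leaving out each clone. Named genes were the 12 highest and 12 lowest over both sets (a difference of at least 1 in each, the first clone outside both others, 1 FPKM in 2 clones), the 8 highest and 8 lowest of each set (1 FPKM in 1 clone), list members with the largest differences or known to define a list, *VEGFA*, *VEGFC* and cell type markers. Other genes were chosen after their values were seen: *PHGDH*, *ASNS*, *JAK1*, *GINS3*, *SLBP*, *BUB3*, *PCNA*, *OASL*, *PCDHGC3*, *MYC*, *FOSL1* and the interferons. The split of the clones and all lists were chosen with earlier results of these data known. Nothing states that the controls of a set came from separate cultures, so the spread between them may be technical. Promoters are from RefSeq on GRCh38.p14, and all other coordinates are hg19.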

Additional observations from a re-analysis of the deposited data

Results flagged for a closer look

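For several gene lists and 3 named single items, the first clone minus the mean of its sisters had opposite signs in the 2 sets. Of these lists, 5 are described below. NF-kB targets, at -1.754 in the *VEGFA-LNC* set and 0.164 in the *VEGFC-LNC* set, had opposite signs too. So did MHC class II (0.077 and -0.273), fibroblast and smooth muscle markers (-0.601 and 0.044) and leukocyte markers (-0.066 and 0.103). The difference between the sets was not tested for any list. For the single items it was part of the fit over all tested genes. That fit had a single first clone in each set, and nothing is read from it. The median differences in the *VEGFA-LNC* and the *VEGFC-LNC* set were -0.064 and 0.301 for chaperones of the endoplasmic reticulum, -0.265 and 0.159 for xenobiotic and aldehyde metabolism, and -0.325 and 0.171 for VEGF ligands and receptors. The third clone was nearly level with the first for the chaperones in the *VEGFA-LNC* set, at -0.062. It was so too for xenobiotic and aldehyde metabolism in the *VEGFC-LNC* set, at 0.149. The median differences were -0.439 and 0.473 for nuclear long noncoding RNAs and 0.348 and -0.151 for ribosomal proteins.

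Among single genes, the log2 differences of *NEGR1* were 4.299 and -1.481. Those of complement *C3* were -5.438 and 0.164, the second value resting on 2, 1 and 0 reads. Those of *MIR6859-1*, *MIR6859-2*, *MIR6859-3* and *MIR6859-4*, which share their reads and count as 1 item, were -5.991 and 0.204, the first being a fitted value against a clone with 0 reads and no bound.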

How the results depend on the processing

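No paired analysis was possible because the replicate number itself separates the clones compared, so that a block on it takes up the comparison. For both sets together, 847 genes were called as reported, 11 with no filter on low values, 2165 with all 10 libraries in the fit, and between 0 and 1362 when 1 clone was left out. The 0 was reached by limma without the third *VEGFA-LNC* clone, with 2701 genes at an unadjusted p under 0.05. In the *VEGFA-LNC* set the 1356 calls became 444 with no filter. In the *VEGFC-LNC* set the 2 calls became 0 by limma with a pseudocount of 1 (1830 at an unadjusted p under 0.05), 329 with no filter and 5 with voom. A pseudocount of 1 took the median of DNA replication genes in the *VEGFA-LNC* set to 1.773, that of endothelial markers there to -0.889 and that of small nucleolar RNAs to -0.462 and -0.239 in the 2 sets. Median-of-ratios scaling, which shifts the median of all genes by -0.06, took small nucleolar RNAs to -0.59 and -0.324 and cholesterol genes in the *VEGFA-LNC* set to 0.368.

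Without the second or the third clone of the set, medians in the *VEGFA-LNC* set ranged from 2.691 to 2.996 for histones, -1.933 to -0.823 for endothelial markers, -2.086 to -1.151 for NF-kB targets, 0.429 to 0.535 for cholesterol genes and -0.749 to -0.386 for small nucleolar RNAs. In the *VEGFC-LNC* set they ranged from -0.451 to -0.011 for MHC class I, -1.054 to -0.629 for endothelial markers and -0.359 to -0.345 for small nucleolar RNAs. NF-kB targets in the *VEGFC-LNC* set ranged from -0.156 to 0.135 and changed sign without the second clone. Runs of 30 genes gave 37 and 11 stretches in place of 14 and 7. The cause of these changes was not tested. Of all list medians recomputed, 81 stayed within the spread of the second and the third clones, 18 moved beyond it and 1 changed sign. The differences of named genes were recomputed only with a pseudocount of 1 and with median-of-ratios scaling, and never without a clone. Of these, 126 stayed within that spread, 46 moved and 0 changed sign. The genes had been named for a first clone outside both others, which makes a change of sign there unlikely. With 1 clone against 2 in each set, and 6743965 reads in the shallowest, genes of few reads carry the least certain values.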
